A study of Mus musculus with 8 samples.

Results

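The brain-enriched mouse microRNAs (miRNAs) mmu-miR-9-5p, mmu-miR-9-3p, mmu-miR-124-3p, mmu-miR-124-5p, mmu-miR-128-3p and mmu-miR-218-5p, written below without the prefix for the species, were followed in exosomes of mouse amniotic fluid, the small membrane vesicles that cells shed into the fluid around the fetus. They were picked by name, all 6 names were on the array, and they are 6 of the 1881 mouse miRNAs it carried. The choice was made with results of the same comparison known, so their differences between the groups are given as descriptions, without a test. The LPS group is 4 samples of preterm birth after lipopolysaccharide (LPS, a bacterial outer membrane component that sets off inflammation), given into the peritoneum at 100 μg per kg body weight on day 14 of pregnancy, with birth about 48 h later. The cesarean group is 4 samples of fluid taken at cesarean section, with no statement in the labels on any injection of these mice. The sources used here name no strain or genotype. All samples are labelled day 17 of pregnancy, which LPS on day 14 and birth about 48 h later would not reach, so equal gestational age is not established. The labels do not say that replicates are separate animals, and p-values for other miRNAs therefore measure the spread between these samples only.

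miR-9, miR-124, miR-128 and miR-218 are known from the nervous system. A miRNA is cut from a hairpin RNA that can yield a mature strand from each arm, named 5p and 3p, and it lowers the output of mRNAs that pair with its seed, bases 2 to 8. miR-9 is abundant in neural progenitors of the embryonic brain and acts in the timing of neurogenesis, and miR-9-3p is the other strand of its hairpin. miR-124 rises as cells become neurons and lowers many transcripts of other cell types. miR-128 is abundant in the forebrain and limits neuronal excitability, and miR-218 is abundant in motor neurons and is made from introns of Slit genes, which encode axon guidance proteins and are also active outside the nervous system.

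The mature strands of 4 of the 6 miRNAs had an entry in the RefSeq table (GRCm38.p6). They are shown because their seeds set them apart, with the seed in capitals.
miR-9-5p: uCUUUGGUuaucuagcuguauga
miR-9-3p: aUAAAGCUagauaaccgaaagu
miR-128-3p: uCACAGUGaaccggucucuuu
miR-218-5p: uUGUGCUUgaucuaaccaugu
No seed was shared among these 4. Among the 1679 mature names of the table, the seed of miR-218-5p was also that of miR-7002-3p, and the seeds of the other 3 occurred in no other name. For miR-124-3p and miR-124-5p the array probes are shown in their place, since the results on miR-124 rest on probes of different length.
longer miR-124-3p probe: ggcattcaccgcgtg
shorter miR-124-3p probe: ggcattcaccgcgt
longer miR-124-5p probe: atcaaggtccgctgtga
shorter miR-124-5p probe: atcaaggtccgctgtg
Each miRNA had 2 probes that differed by 1 base at their 3′ end, and each probe was printed in 15 spots. The 3′ base of a probe pairs toward the 5′ end of the miRNA. The longer miR-9-3p probe, actttcggttatctagctt, pairs with bases 4 to 22 of the strand and the shorter one with bases 5 to 22, so both reach into the seed.

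Several genes make each miRNA, and the array does not tell them apart, since each probe matches all copies on mm9 in the scanner files. In RefSeq (GRCm38.p6) the miR-9 hairpins lie inside long non-coding RNA genes: Mir9-1 at chr3:88215598-88215686 in Gm3764, Mir9-2 at chr13:83738814-83738885 in C130071C03Rik, and Mir9-3 at chr7:79505264-79505353 in Mir9-3hg. Mir124a-1 lies at chr14:64590657-64590741 in Mir124a-1hg, Mir124a-2 at chr3:17795662-17795770 in Mir124-2hg, and Mir124a-3 at chr2:180894040-180894107 inside no listed gene. Mir128-1 lies at chr1:128202361-128202430 in R3hdm1 and Mir128-2 at chr9:112118636-112118711 in Arpp21. Mir218-1 lies at chr5:48223942-48224051 in Slit2 and Mir218-2 at chr11:35616816-35616925 in Slit3.

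Between 405 and 554 miRNAs were well above background on an array, and the 75th percentile of the detected probes ran from 7.72 to 8.81 on the log2 scale. Cesarean replicate 1 had the highest number and the highest percentile. A single slide held all 8 arrays, the LPS samples in one row and the cesarean samples in the other, so row and group cannot be told apart. Levels are spot intensities scaled to a common 75th percentile, in arbitrary units. On the log2 scale, values under a floor of 13.5 (log2 3.75) were raised to it, and levels of different miRNAs were not compared, since probes differ in brightness. With 4 arrays per group the precision is limited. The array holds no protein markers, so the exosome label was not checked against them. A lower signal may come from fewer exosomes of a source or from less of a miRNA in each, which cannot be told apart in bulk samples.

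Of the 6 miRNAs, 5 were well above background on at least 1 array. Each of these 5 had a lower mean log2 level in the LPS group than in the cesarean group, although miR-128-3p differed by far less than its spread. Over all 470 tested miRNAs, 256 were lower, and nothing is read from the count of members. miR-9-5p and miR-124-3p were at the floor on every LPS array, so their LPS means could not be the higher ones. Without cesarean replicate 1 their log2 differences were -0.12 and 0. miR-9-5p and miR-124-3p were well above background on cesarean arrays alone, and miR-9-3p on 4 cesarean arrays and 1 LPS array. The limit for this differed between arrays. The dimmest signal well above background was 8.60, 8.16, 15.3 and 13.2 scaled units on cesarean replicates 1 to 4. It was 13.8, 15.2, 7.90 and 15.4 on LPS replicates 1 to 4. A single sample, cesarean replicate 1, held the highest miR-9-5p, miR-9-3p and miR-124-3p signals of all 8 arrays. Only 3 of the 6 were tested in the fit over all miRNAs, which took in a miRNA only if 3 or more of the 4 arrays in one group measured it above background. miR-9-3p and miR-218-5p met that filter through the cesarean group alone, so the filter itself favoured a lower level after LPS.

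**Figure D1:**
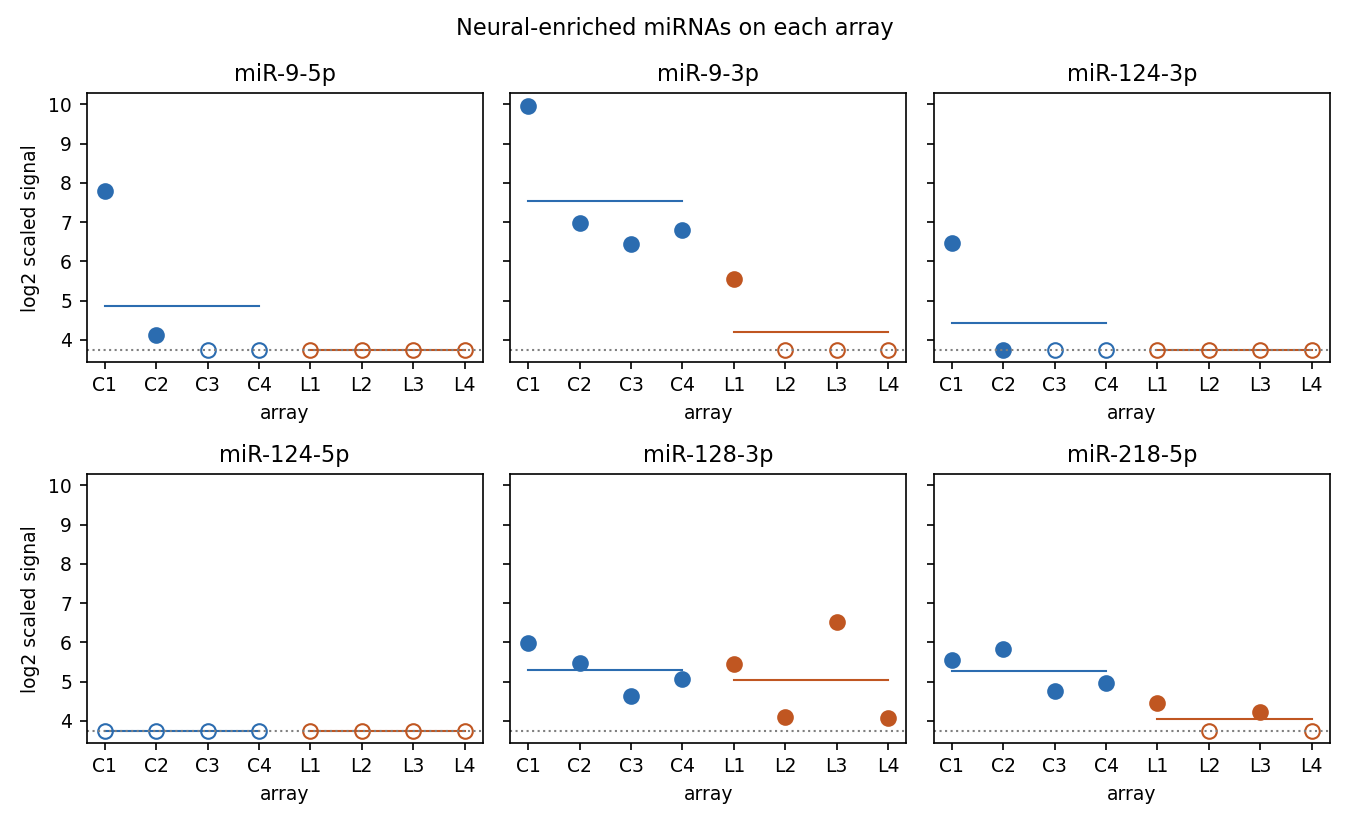
Log2 scaled signal of each miRNA (vertical axis) on each array (C1 to C4, cesarean replicates in blue; L1 to L4, LPS replicates in orange). Filled points were well above background, open points were not, horizontal lines are group means and the dotted line is the floor of 3.75. miR-9-5p, miR-9-3p and miR-124-3p stand highest on C1, while miR-128-3p stands highest on L3.

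miR-9-3p read 999.9, 125.6, 87.2 and 111 scaled units on cesarean replicates 1 to 4. On LPS replicates 1 to 4 it read 47.2, -0.157, 4.23 and 0.284 scaled units. It was thus well above background on 4 of 4 cesarean arrays and on 1 of 4 LPS arrays, and the groups did not overlap. On the log2 scale the cesarean mean was 7.54 ± 1.63 (SD, n = 4) and the LPS mean 4.20 ± 0.90 (SD, n = 4), with 3 LPS arrays set at the floor. The log2 difference, LPS minus cesarean, was -3.34 (SE 0.74), or 10.1-fold. Its size depends on the floor and on 1 sample: the log2 difference was -2.59 with 2 times the floor, and -2.53 (5.78-fold) without cesarean replicate 1. Those 3 remaining cesarean arrays still lay above every LPS array.

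The replicate spots of miR-9-3p were close together. Their coefficient of variation was 3.76% on cesarean replicate 1, between 2.16% and 8.48% on the other cesarean arrays, and 12.2% on LPS replicate 1. The dimmer probe gave 659, 81.5, 55.7 and 74.8 scaled units on the cesarean arrays and 33.6 on LPS replicate 1. It was therefore seen on the same 5 arrays in the same order, with a log2 difference of -2.85.

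miR-9-5p, the strand of the same hairpin known to repress progenitor genes, read 220, 17.5, 10.9 and 11.3 scaled units on cesarean replicates 1 to 4. On the LPS arrays it read 2.92, 0.888, 0.800 and 0.203 scaled units. It was well above background on 2 of 4 cesarean arrays and on 0 of 4 LPS arrays. All LPS arrays and 2 of the 4 cesarean arrays were set at the floor, so no fold is given. With values raised to the floor, the log2 difference was -1.10, and it was -0.12 without cesarean replicate 1. The dimmer probe was well above background on cesarean replicate 1 alone, at 91.2 scaled units.

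Both strands of miR-9 were therefore brightest on the same array. On it, miR-9-5p was 12.6-fold above cesarean replicate 2, the only other array that measured it, and miR-9-3p was 7.96-fold above that array.

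miR-124-3p, the strand of miR-124 known to act in neurons, read 88.5, 11.5, 5.40 and 0.0420 scaled units on cesarean replicates 1 to 4. On LPS replicates 1 to 4 it read 8.23, 7.44, 1.86 and 2.19 scaled units. It was well above background on cesarean replicates 1 and 2, the latter with 12 of 15 spots and a scaled signal under the floor, and on 0 of 4 LPS arrays. With values raised to the floor the log2 difference was -0.68, and it was 0 without cesarean replicate 1, so no fold is given. The spot signals of the other 3 cesarean arrays overlapped those of the LPS arrays. Its dimmer, shorter probe was well above background on cesarean replicate 1 alone, at 18.8 scaled units and with 15 of 15 spots. Cesarean replicate 1 was thus the only array with both probes above background. miR-124-5p, the other strand, was well above background on 0 of 8 arrays, with scaled signals from -2.65 to 4.06.

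miR-218-5p had moderate levels without an array standing far apart. It read 47.3, 57.1, 27.1 and 31.4 scaled units on cesarean replicates 1 to 4. On the LPS arrays it read 22.1, 12.9, 18.6 and 8.21 scaled units. Every cesarean array was above every LPS array, and LPS replicates 1 and 3 alone of that group were well above background. The log2 means were 5.28 ± 0.50 in the cesarean group and 4.05 ± 0.35 in the LPS group (SD, n = 4 each), and the difference was -1.24 (SE 0.30), or 2.36-fold. It was -1.14 without cesarean replicate 1. The dimmer probe gave -0.86. As the signals are close to background, the size moved with the treatment of dim spots: it was -0.53 with 2 times the floor and -0.36 after normexp background correction.

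miR-128-3p was the 1 member well above background on 8 of 8 arrays. It read 63.6, 44.5, 24.8 and 33.3 scaled units on cesarean replicates 1 to 4. On LPS replicates 1 to 4 it read 43.6, 17.2, 91.2 and 16.8 scaled units. The groups overlapped fully, since the LPS group held both the highest array and the lowest. The log2 means were 5.29 ± 0.58 and 5.03 ± 1.17 (SD, n = 4 each), and the difference of -0.26 (SE 0.54) was smaller than the spread. It was -0.02 without cesarean replicate 1 and -0.75 without LPS replicate 3.

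Of the 3 members tested, miR-9-3p and miR-218-5p were past the threshold of 0.05 for limma's adjusted p, both lower with LPS, a count given as a description. Over all 470 tested miRNAs 4.89% were past it in either direction, 2.34% lower and 2.55% higher with LPS. The groups of miR-9-3p and miR-218-5p did not overlap, as for 7.23% of the tested miRNAs lower with LPS and 9.79% higher. Nothing is read from these counts, because the members were chosen with this comparison known. Across 20 alternative settings, the differences of miR-9-3p and miR-218-5p were below 0 in all 20. That sign is no support either, since the settings re-use the same arrays and the members were chosen with this comparison known.

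**Figure D2:**
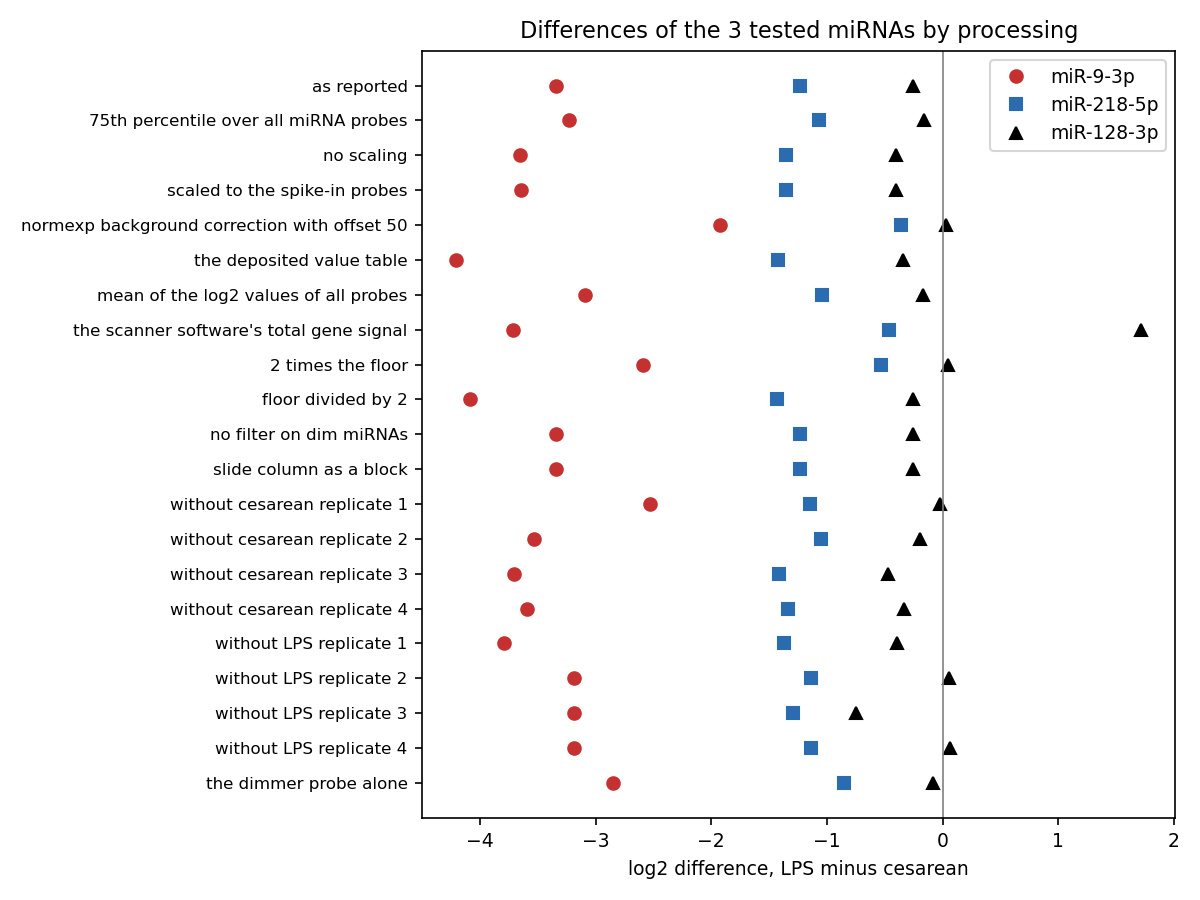
Log2 difference, LPS minus cesarean (horizontal axis), of miR-9-3p, miR-218-5p and miR-128-3p under each processing setting (vertical axis, first the setting as reported). miR-9-3p runs from -4.20 to -1.92 and miR-218-5p from -1.43 to -0.36 over the alternatives plotted, and miR-128-3p lies on both sides of 0.

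**Figure D3:**
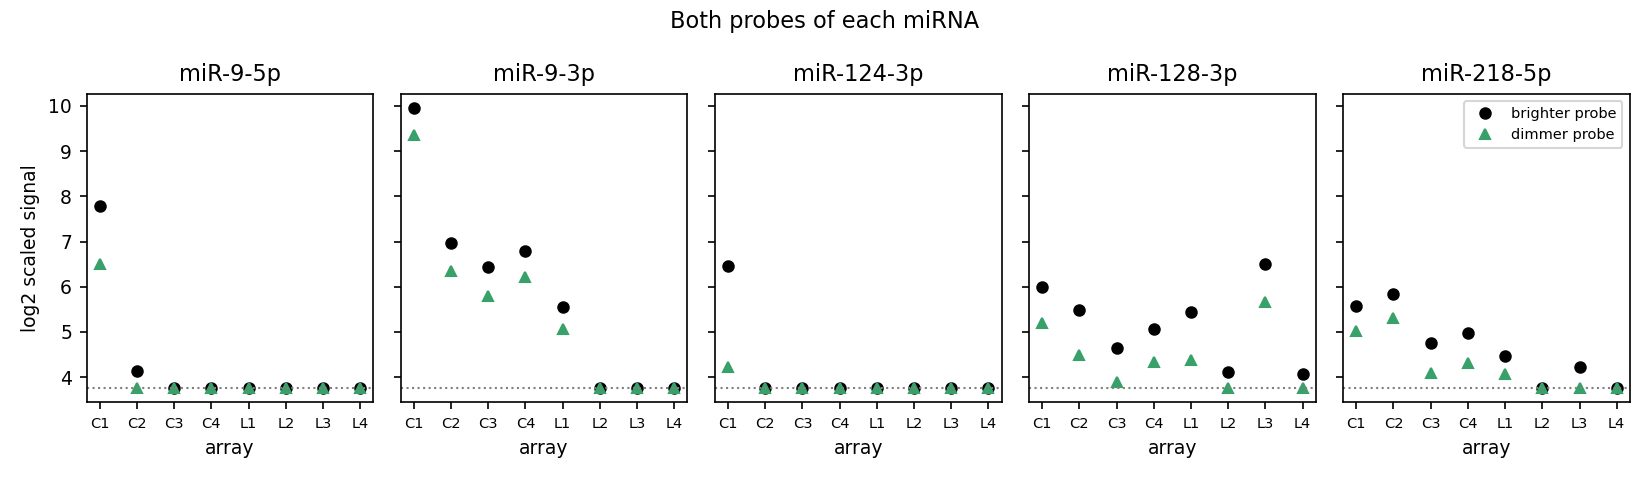
Log2 scaled signal (vertical axis) of the brighter probe (circles) and the dimmer probe (triangles) of 5 miRNAs on each array (C, cesarean; L, LPS), with the floor of 3.75 as a dotted line. Both probes of miR-9-3p are above the floor on the same 5 arrays, and the dimmer probes of miR-9-5p and miR-124-3p are above it on C1 alone.

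Cesarean replicate 1 was set against the mean of the other 3 cesarean arrays for each miRNA above background on it. This ranking was chosen after the values were seen and has no test, since it concerns 1 sample. miR-9-5p had the highest excess of all, 3.91 on the log2 scale (15.0-fold), miR-9-3p the second, 3.23 (9.38-fold), and miR-124-3p the third, 2.71 (6.57-fold). The folds of miR-9-5p and miR-124-3p were taken partly against the floor. The median over these miRNAs was 0.003 and the 95th percentile 0.98, after scaling that sets all arrays to a common percentile. Without scaling, the excess of miR-9-3p was 4.03. miR-128-3p ranked 32nd at 0.94 and miR-218-5p stood much lower at 0.37.

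The other nervous tissue miRNAs were spread over the ranks of this array. Singled out after their values were seen, miR-219a-5p, a miRNA of oligodendrocytes, ranked 5th with an excess of 1.63, and miR-137-3p, a neuronal miRNA, ranked 18th with 1.20. miR-219a-5p ranked 29th with 2 times the floor, 52nd after normexp correction and 16th by the scanner software's total signal. miR-212-3p went the other way, with an excess of -0.71, and miR-712-3p, on neither neural list, ranked 4th with 2.01. Ranks 1 to 3 belonged to the same members, in the same order, in the deposited value table and with no scaling, scaling to the spike-in probes, scaling over all probes or the mean of all probes. With 2 times the floor miR-124-3p ranked 4th, after normexp correction it ranked 5th, and by the total signal per miRNA of the scanner software the ranks of miR-9-5p, miR-9-3p and miR-124-3p were 3, 5 and 17. With the floor divided by 2 the same members held ranks 1 to 3 in another order. The labels give no difference between this sample and the other cesarean samples.

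**Figure D4:**
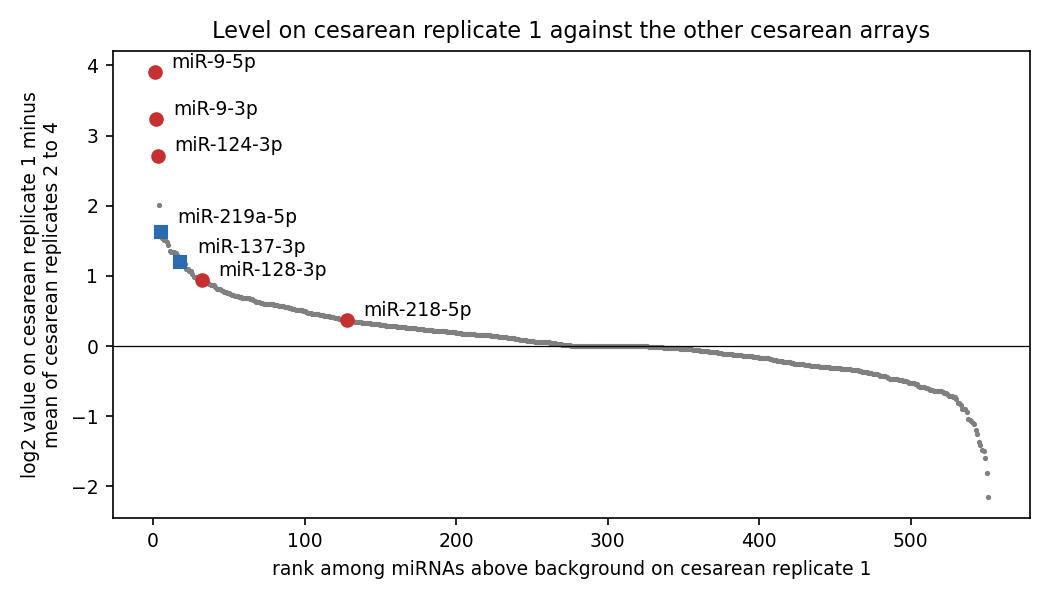
Log2 value on cesarean replicate 1 minus the mean of cesarean replicates 2 to 4 (vertical axis) for the miRNAs above background on that array, ordered by this value (horizontal axis). Red circles are the members and blue squares miR-219a-5p and miR-137-3p; miR-9-5p, miR-9-3p and miR-124-3p lead at 3.91, 3.23 and 2.71.

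Most of a wider list of nervous tissue miRNAs could not be compared between the groups. Of 21 other such miRNAs listed, 10 were well above background on at least 1 array and 11 on none, among them miR-338-3p of oligodendrocytes and the neuronal miR-153-3p, miR-383-5p and miR-488-3p. Only 4 were tested, and of these 0 were higher and 0 lower after LPS by limma at an adjusted p of 0.05, with 1 at an unadjusted p under 0.05, beside 117 of all 470. Their median log2 difference was 0.41, beside -0.06 over all 470 tested miRNAs. miR-7a-5p, miR-138-5p and miR-204-5p met the filter for testing through the LPS group alone, so the filter itself favoured a higher level after LPS. Nothing is read from this median.

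The neuronal miR-138-5p, known for its role in dendritic spines, was the closest to the threshold, in the direction opposite to miR-9. Its log2 level was 3.78 ± 0.04 in the cesarean group and 4.85 ± 0.57 in the LPS group (SD, n = 4 each), a difference of 1.07 (SE 0.29, limma adjusted p = 0.0640). The small cesarean SD is set by the floor, with replicates 1 and 2 at 3.76 and 3.84 and replicates 3 and 4 at the floor. With 2 times the floor the difference was 0.28. miR-138-5p was well above background on 2 cesarean and 3 LPS arrays. Without LPS replicate 4 it passed at a limma adjusted p of 0.0146, within a range from 0.0146 to 0.437 over the alternatives that tested it. It met the filter for testing through the LPS group alone. miR-7a-5p, a miRNA of neuroendocrine cells, differed by 0.28 (SE 0.23, limma adjusted p = 0.480), and miR-204-5p, of choroid plexus and retinal pigment epithelium, by 0.54 (SE 0.46, limma adjusted p = 0.500). miR-212-3p, which neuronal activity induces, differed by -0.12 (SE 0.27, limma adjusted p = 0.847).

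On the arrays of the cesarean group, miR-219a-5p was at 5.51 on replicate 1, 4.13 on replicate 2 and at the floor on both others. miR-137-3p was at 4.96 on replicate 1 and at the floor elsewhere. These miRNAs thus shared with miR-9-5p and miR-124-3p that cesarean replicate 1 was their brightest array and that 0 of 4 LPS arrays measured them. The 4 tested miRNAs of the list were above background on LPS arrays, miR-7a-5p and miR-212-3p on 4 and miR-138-5p and miR-204-5p on 3. For miR-7a-5p, miR-138-5p and miR-204-5p the filter for testing required this, since they met it through the LPS group alone. Cesarean replicate 1 was the brightest of all arrays for none of the 4. Within the cesarean group it was the brightest for miR-204-5p and miR-7a-5p, with excesses of 1.16 and 0.55 on the log2 scale. It was not the brightest of that group for miR-138-5p and miR-212-3p. miR-204-5p was high on LPS replicates 1 and 3, at 5.66 and 5.40 on the log2 scale. The share of all miRNAs with the pattern of miR-219a-5p and miR-137-3p was not counted.

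The other strands of the miR-128 and miR-218 hairpins, miR-128-1-5p, miR-128-2-5p, miR-218-1-3p and miR-218-2-3p, were well above background on none of the 8 arrays.

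Summed signals of miRNAs that mark other cell types also differed between arrays. The summed scaled signal of the members well above background was 1420, 256, 139 and 175 on cesarean replicates 1 to 4 and 113, 17.2, 109.7 and 16.8 on LPS replicates 1 to 4. The 4 striated muscle miRNAs (4 of 4 above background on some array) summed to 279, 569, 376 and 379 on the cesarean arrays and to 984, 139, 1846 and 167 on the LPS arrays. By the spots, miR-128-3p and the muscle sum were thus both high on LPS replicates 1 and 3 and both low on LPS replicates 2 and 4. By the scanner software's total signal, LPS replicates 2 and 4 were instead the highest arrays for miR-128-3p, at 104.9 and 80.8. In the cesarean group the 2 did not go together. How many other miRNAs share this order of the LPS arrays was not counted, and no link to muscle was tested. On cesarean replicate 1, where the miR-9 strands were highest, miR-128-3p was the highest of its group, at 63.6, and the muscle sum the lowest, at 279. Like the muscle sum, the liver miRNA miR-122-5p was highest on LPS replicates 1 and 3, at 310 and 896 scaled units. In the cesarean group it read 130 and 31.3 on replicates 2 and 4 and was not well above background on replicates 1 and 3.

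**Figure D5:**
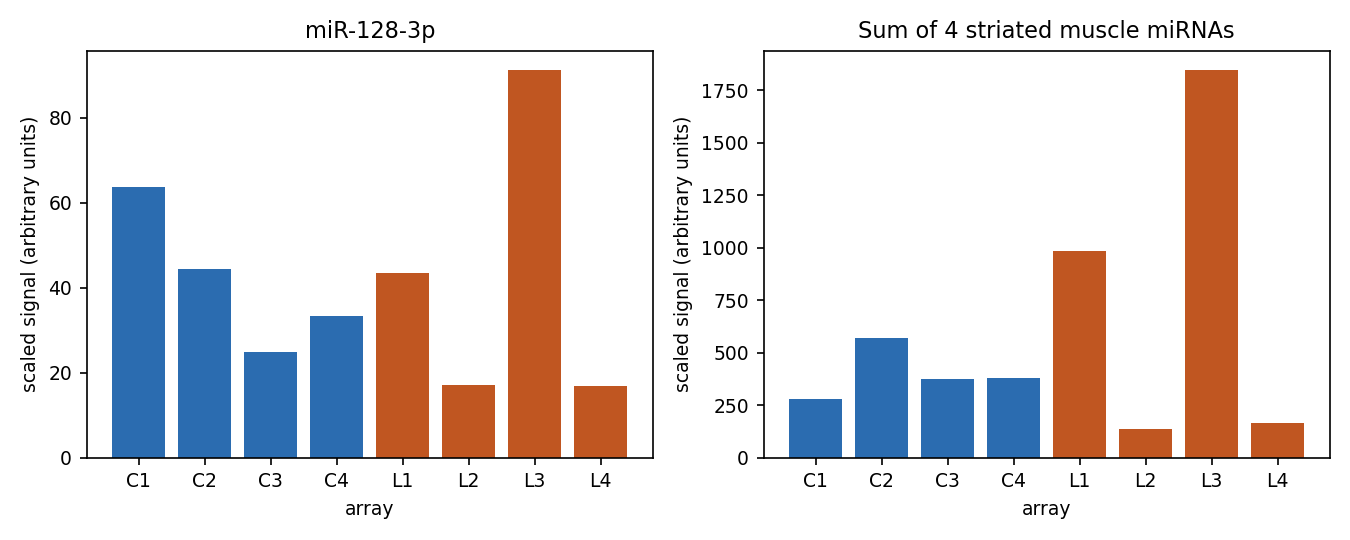
Scaled signal of miR-128-3p (left, arbitrary units) and the summed scaled signal of 4 striated muscle miRNAs (right, arbitrary units) on each array (C, cesarean, blue; L, LPS, orange). Within the LPS group both are high on L1 and L3 and low on L2 and L4. Within the cesarean group miR-128-3p is highest on C1, where the muscle sum is lowest.

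The 5 epithelial miRNAs of the miR-200 family, all 5 above background, summed to between 723 and 981 on cesarean arrays and between 1441 and 2240 on LPS arrays. The 3 red blood cell miRNAs summed to between 8674 and 15736 on cesarean arrays and between 14042 and 30955 on LPS arrays. The 3 leukocyte miRNAs gave sums from 454 to 701 and from 511 to 779, and the 2 endothelial ones from 235 to 540 and from 252 to 371, in the cesarean and LPS groups. Each sum follows the brightest miRNAs of its list. By limma at an adjusted p of 0.05, 3 of 5 epithelial, 1 of 3 red blood cell and 1 of 2 leukocyte miRNAs tested were higher with LPS. The count was 0 of 1 for endothelium, 0 of 4 for striated muscle and 0 of 1 for liver, beside 2.55% higher over all 470. In each of these lists 0 were lower. The part of these cell types in the differences of the neural miRNAs was not tested.

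Patterns over the 8 arrays were compared by the mean absolute difference of log2 values, each miRNA centred on its own mean, among the 473 miRNAs above background on at least 4 of 8 arrays. This is a description, and the arrays share slide and scaling. miR-218-5p lay close to several miRNAs: miR-130b-3p at 0.14, miR-125a-3p at 0.16 and miR-125b-5p at 0.19, where the median over all was 0.71. miR-128-3p was nearest to miR-381-3p at 0.40, miR-323-3p at 0.41 and miR-487b-3p at 0.42, with a median of 0.81. The nearest to miR-9-3p were miR-181b-5p at 0.98, miR-181d-5p at 1.01 and miR-1931 at 1.01, with a median of 1.69. The values were not brought to a common spread, so the wide range of miR-9-3p enlarges its distances to all miRNAs. On cesarean replicate 1 miR-181b-5p read 7.07 and on LPS replicate 2 it read 4.80 on the log2 scale, a narrower range than that of miR-9-3p.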

How the data were processed

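Exosomes were isolated by size-exclusion chromatography (fractions 7 to 9), and Cy3-labelled material was made from 0.5 μg of RNA, per the labels' protocols, which call it cRNA. The sources used here do not state a labelling step for miRNAs. Per the file headers, the deposited spot intensity values are linear, background-subtracted signals from Agilent Feature Extraction 10.7.1.1, while the submitters' processing notes name version 9.1. An alternative was the deposited value table of log2 values, which the authors normalized between arrays (column medians 2.14 to 2.15) by a method that is not given in the sources used. Other deposited columns, marks for outlier spots and for signal well above background, are yes or no flags per the file headers.

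Spots of controls, and those marked as outliers or as non-uniform, were left out (2.99% to 3.48% of the miRNA spots of an array). A probe was well above background where a share of 0.5 or more of the remaining spots was. Probe means were scaled per array to the 75th percentile of the 618 probes that all arrays detected, raised to a floor of 13.5 (the dimmest signal well above background, as a median across arrays) and log2-transformed. The brightest probe stood for each miRNA. The 470 miRNAs well above background on at least 3 of 4 arrays of either group were tested with limma 3.58.1 (R 4.3.3; lmFit, eBayes, two-sided, Benjamini-Hochberg over all 470, threshold 0.05), a script tested on simulated data. The median log2 difference over all tested miRNAs was -0.06. Tables were made with Python 3.11.15 (numpy 2.4.6, pandas 2.3.3) and plots with matplotlib 3.10.9.

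The labels pair no samples. Replicate numbers follow deposition order, which is also the slide column in both groups, and that column was a block in one alternative. Named miRNAs are the 6 members, the 4 other strands, the 4 tested miRNAs of the other neural list (smallest p), and the 3 nearest in pattern to each member above background on at least 4 arrays. Further miRNAs were singled out after their values were seen: miR-219a-5p, miR-137-3p, miR-712-3p, miR-122-5p, and the undetected miR-338-3p, miR-153-3p, miR-383-5p and miR-488-3p. The members and lists were chosen with earlier results of these data known. Alternatives covered scaling, background correction, probe summary, value table, floor, filter, slide column and each array left out in turn.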

Additional observations from a re-analysis of the deposited data

Results flagged for a closer look

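In 4 groups of arrays, 1 array lay apart from the other 3 by a gap that exceeds Dixon's critical value for the group's range. Chance marks about 1 in 20 such groups, and groups in which 3 arrays share the floor are marked whenever the remaining one is above it. On the cesarean arrays, miR-9-5p was at 7.78 on the log2 scale on replicate 1 with the next at 4.13 (gap over range 0.907), miR-9-3p was at 9.97 with the next at 6.97 (0.850), and miR-124-3p was at 6.47 with the others at the floor (gap equal to the range). On the LPS arrays, miR-9-3p was at 5.56 on replicate 1 with the others at the floor of 3.75 (gap equal to the range). The 3 cesarean values belong to the same sample. The share of all miRNAs marked in this way is not given, so nothing is read from the count of 4.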

How the results depend on the processing

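The labels pair no samples, and the only pairing tried was by slide column, which matches the replicate numbers. The count of miRNAs past the threshold, 23 of 470, was 13 with scaling over all probes, 1 with no scaling, 1 with spike-in scaling, 9 after normexp correction, 8 by the scanner's total signal, 2 with no filter, 15 among miRNAs above background on all 8 arrays and 1 when slide columns were a block, and ran from 2 (without cesarean replicate 1) to 79 (without LPS replicate 1) with 1 array left out. Without scaling the median of all miRNAs was -0.20, and with spike-in scaling -0.21. The members past it, 2 of 6, were 1 with no scaling, spike-in scaling, the value table, the mean of probes, the floor divided by 2 or the slide column as a block, were 0 with scaling over all probes, normexp, the total signal, 2 times the floor, no filter or detection on all arrays, and ran from 0 to 2 with 1 array left out (2 without LPS replicate 1, 0 without any other). The other neural miRNAs past it were 0, and 0 to 1 with 1 array left out (1 without LPS replicate 4). The difference of miR-9-3p was -1.92 after normexp. That of miR-128-3p was 1.72 by the total signal. That of miR-218-5p was -0.36 after normexp, -0.46 by the total signal and -0.53 with 2 times the floor. The differences of miR-9-5p ran from -1.96 to -0.12 and those of miR-124-3p from -1.38 to 0 over 19 alternatives each. The causes were not tested. Signal over background limits the sizes for miR-9-5p, miR-9-3p, miR-124-3p and miR-218-5p, which had LPS arrays at the floor.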

Other observations

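The scanner software's own total signal per miRNA and the spots disagreed for miR-128-3p on 2 LPS arrays. On cesarean replicates 1 to 4 and LPS replicates 1 and 3 the total was between 0.428 and 0.465 of the mean unscaled spot signal of the brighter probe. On LPS replicates 2 and 4 it was 6.65 and 6.37 times that signal: the totals were 104.9 and 80.8, where the spots averaged 15.8 and 12.7 units. By the totals these were the 2 highest arrays for miR-128-3p, and by the spots the 2 lowest. For miR-9-3p the total was between 0.476 and 0.496 of the spot signal on each of the 5 arrays that measured it. For miR-124-3p the total was 0.352 of the spot signal on cesarean replicate 1 (49.8) and 2.31 times it on cesarean replicate 2 (33.1), where the spots averaged 14.4 units. The total for miR-218-5p on LPS replicate 2 was 60.1, where the spots averaged 11.8 units and were not well above background.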
